A study of Sus scrofa with 12 samples.

Results

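Open chromatin was described here at 9 genes of the insulin-like growth factor (IGF) system in pig muscle, the ligands IGF1 and IGF2, the receptors GHR, IGF1R and IGF2R, and the binding proteins IGFBP3, IGFBP4, IGFBP5 and IGFBP6. The regions were those of the authors' deposited peak table whose midpoint lay in the body of a gene in Sscrofa11.1 or within 10 kb of it. They numbered 325 of 217213 peak intervals, which made 198 of 140081 regions once overlapping common intervals were merged. All 198 held at least 20 reads. ATAC-seq was performed on the longissimus dorsi, the long muscle of the back, of 3 Duroc boars and 3 Luchuan boars killed after an overnight fast at 180 days of age and kept under the same feeding. Duroc is a lean, fast-growing breed and Luchuan a Chinese fat breed that grows slowly, and the study asked how the muscle of the breeds differs. The table gives 1 read count per breed for each region, without separate values for the boars, so none of the values has a spread between animals and no difference between the breeds could be tested.

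Growth hormone from the pituitary acts through its receptor GHR on liver and muscle and raises the production of IGF1. IGF1 and IGF2 signal through the tyrosine kinase receptor IGF1R to promote the growth of muscle fibers and the proliferation and differentiation of myoblasts, while IGF2R takes up IGF2 and sends it for degradation. The binding proteins carry the ligands, limit their access to the receptor and release them when they are cut by proteases. IGF2 is an imprinted gene expressed from the paternal copy, and it is well known in pigs for an effect on muscle growth.

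Over all regions the Duroc count was the larger, with 20760292 reads in Duroc and 13746432 in Luchuan and medians of 61 and 38 reads per region. Luchuan reads were therefore multiplied by 1.48, the factor that sets the median ratio of common regions to 0 on the log2 scale, and each ratio below is that of scaled Luchuan to Duroc reads. Scaling by the clean reads that the study states moves the median of all regions to -0.22, and no scaling moves it to -0.58, so each direction is meant relative to the bulk of the regions. The 95% interval after a ratio covers counting error alone. The tissue was checked with 50 marker genes. Regions were present at 13 of 13 skeletal muscle fiber genes, with a median of 224 Duroc and 185 scaled Luchuan reads per kb of gene window and a summed log2 ratio of -0.14. At satellite cell and myoblast genes the median was 276 Duroc and 264 scaled Luchuan reads per kb. The medians of adipocyte, fibroblast, endothelial, immune, liver and neuron genes were at most 5.12 in Duroc and 5.40 in Luchuan. Of the 5 liver genes, ALB, TTR and FGB had no region while APOA1 and APOB had, and the highest gene of these lists reached 89.8 Duroc reads per kb for immune and 77.9 for liver genes, above the lowest muscle fiber gene at 59.2. The summed log2 ratio was 0.12 for fibroblast genes (0.0010 to 0.24), 0.10 for adipocyte genes (-0.096 to 0.31) and -0.15 for neuron genes (-0.28 to -0.027), and the part of such shifts in the results below was not tested. In whole muscle, fewer nuclei of a cell type and less open chromatin per nucleus cannot be told apart.

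GHR was the gene of the system with the clearest excess of open chromatin in Luchuan, and IGFBP5 was the gene with the clearest excess in Duroc. The reads summed over the regions of GHR gave a log2 ratio of 0.25 (0.21 to 0.30), and those of IGFBP5 gave -0.23 (-0.32 to -0.14), while without scaling both lay below 0, GHR at -0.31 and IGFBP5 at -0.80. The only other gene with an interval above 0 was IGF2R, with 0.099 (0.026 to 0.17), whose direction turns to -0.099 with scaling by clean reads and to -0.47 without scaling. The interval included 0 for the other 6 genes, IGF1, IGF2, IGF1R, IGFBP3, IGFBP4 and IGFBP6. The ratios of IGFBP6 (0.33) and IGFBP4 (0.28) were above that of GHR, and that of IGFBP3 (0.14) above that of IGF2R. These 3 genes held 49 to 304 reads, against 16294 at GHR and 6280 at IGF2R, so their intervals were wide. When every deposited interval was counted, so that overlapping intervals gave their reads more than once, the 95% interval left out 0 for IGFBP4 (0.31, 0.052 to 0.57) and IGFBP6 (0.35, 0.017 to 0.69). Among 16888 protein-coding genes with at least 20 reads in such windows, the 95% interval lay above 0 for 22.8% and below 0 for 25.2%, so an interval that leaves out 0 was frequent and is no feature of this gene system. No gene of the system reached 2-fold in its sum, against 2.17% of those genes higher in Luchuan and 0.965% higher in Duroc. The ratio of GHR had a percentile of 85.5 among those genes and that of IGFBP5 a percentile of 15.3.

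**Figure D1:**
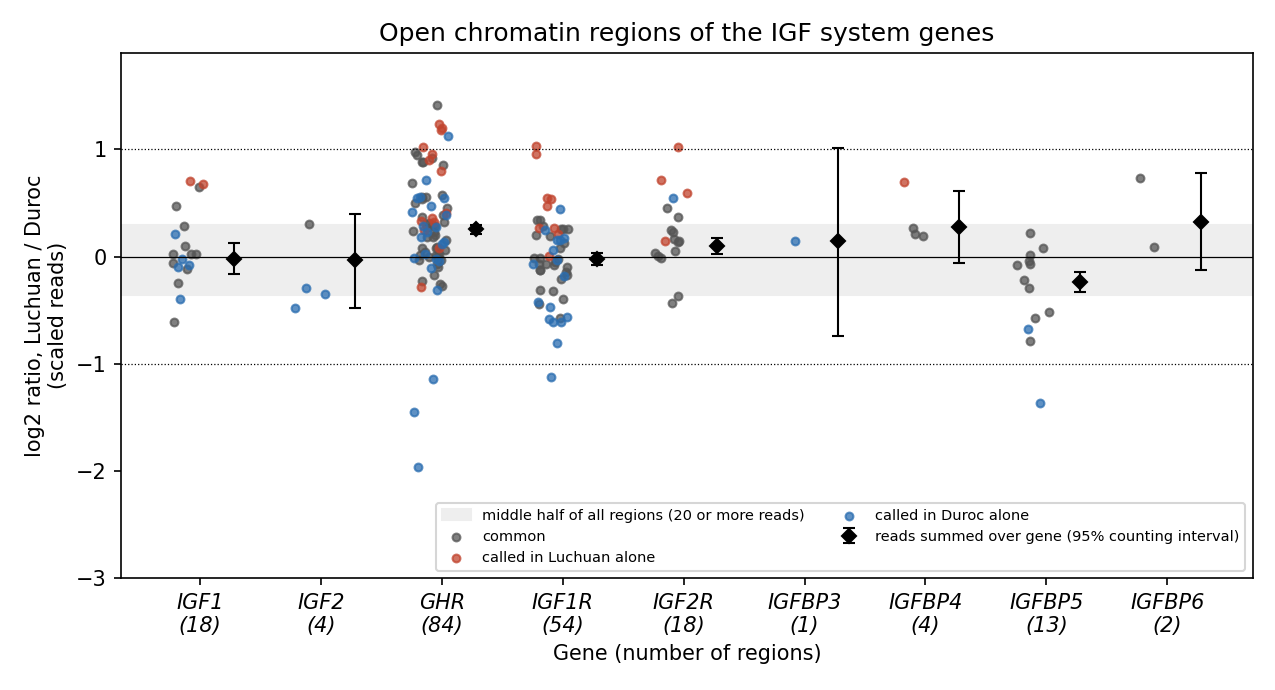
Points give the log2 ratio of scaled Luchuan to Duroc reads (y axis) of each of the 198 regions by gene (x axis, number of regions in brackets), coloured by the breed in which the peak was called. Diamonds give the ratio of reads summed over a gene with its 95% counting interval, dotted lines mark 2-fold and the grey band holds the middle 50% of all regions; the diamond of GHR lies above 0 at 0.25 and that of IGFBP5 below it at -0.23, while without scaling GHR lies at -0.31.

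Of the 198 regions, 126 had a ratio above 0 and 72 below it, with a median of 0.14. Over all 137697 regions of at least 20 reads, 48.0% lay above 0 and the median was -0.020. Most of this excess came from GHR, which held 84 of the 198 regions. In the other 8 genes 61 regions lay above 0 and 53 below, with a median of 0.024. A difference of 2-fold or more was reached by 8 regions higher in Luchuan, or 4.04%, against 6.4% of all regions, and by 5 regions higher in Duroc, or 2.53%, against 5.63%. Large differences were thus no more frequent at these genes than elsewhere. The 95% interval lay above 0 for 33 regions (16.7%, against 13.2% of all regions) and below 0 for 15 (7.58%, against 15.8%). Of those 33 regions, 23 belonged to GHR.

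IGF1, the main mediator of growth hormone, lies on chromosome 5 from 81762027 to 81909253 (NCBI gene 397491) and had 18 regions, all inside the gene. Their sums were 967 Duroc and 646 Luchuan reads before scaling, a log2 ratio of -0.018 (-0.16 to 0.13). With scaling by clean reads it was -0.22 (-0.36 to -0.071). With 10 regions above 0 and 8 below, and none past 2-fold, the breeds could not be told apart over the gene as a whole. The one exception by counting error was the strongest region, 84.2 kb from the lower-coordinate end of the gene, from 81845882 to 81846485. With its interval below 0 it made 5.56% of the gene's regions, fewer than the 15.8% of all regions. It had 161 reads in Duroc and 71 in Luchuan, with a log2 ratio of -0.61 (-1.04 to -0.21). Its lone position can be seen in the map of IGF1, where the intervals of the other 17 regions cross 0. The highest ratio of the gene, 0.71 (-0.10 to 1.57), belonged to a weak region called in Luchuan alone, with 25 Duroc and 28 Luchuan reads, from 81821623 to 81821840. Without the strongest region the summed ratio was 0.077.

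IGF2 (chromosome 2, from 1469183 to 1496417, NCBI gene 396916) had little open chromatin in either breed. Only 4 regions were listed, all inside the gene, with 112 Duroc and 74 Luchuan reads in all. The summed log2 ratio was -0.033 (-0.48 to 0.40), so a difference of up to about these bounds was not detectable at this depth. The strongest region, from 1494491 to 1494755 and 1.79 kb inside the higher-coordinate end, held 50 reads in Duroc and 42 in Luchuan and was the only one common to both breeds. Its log2 ratio was 0.31 (-0.31 to 0.93). The other 3 regions were called in Duroc alone, yet they held only 19 to 22 Duroc reads each against 9 to 12 Luchuan reads. The largest difference among them was -0.48 (-1.84 to 0.70), from 1479528 to 1479693, which became -1.09 (-2.51 to 0.033) with a scaling factor for each of 10 classes of signal. Without the strongest region the summed ratio was -0.38. The neighbouring insulin gene INS and TH, the tyrosine hydroxylase gene, reach into the window of IGF2, but no region lay inside them there. Of the 4 regions, 2, the strongest among them, lay inside IGF2 but also within 10 kb of INS. The median ratio of the 176 regions within 1000 kb on both sides was -0.17.

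GHR, the receptor that carries the growth hormone signal into the cell, spans chromosome 16 from 27126300 to 27422618 (NCBI gene 397488). It had the most regions of the 9 genes, 84, of which 83 lay inside it and 1 across its lower-coordinate end. They held 9019 Duroc and 7275 Luchuan reads. After scaling, 65 of the 84 regions (77.4%) were higher in Luchuan, with a median log2 ratio of 0.27 and the middle 50% of the regions between 0.018 and 0.55. The 95% interval lay above 0 for 27.4% of the regions and below 0 for 2.38%, against 13.2% and 15.8% of all regions. The summed fold was 1.19. Most single regions differed by less than 2-fold, but the shift was uneven along the gene, as the segments below show.

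The excess at GHR was not shared by its surroundings. The 125 regions of at least 20 reads within 1000 kb outside its window had a median log2 ratio of -0.072, and 45.6% of them were higher in Luchuan. The median of the 3663 regions of chromosome 16 was 0.051. The ratio of GHR relative to the median of all regions was 0.27 with the main scaling. A single factor for all regions cancels in this value. Clean reads and no scaling (0.27 each) and total reads (0.28) could therefore hardly change it. With a factor for each of 10 classes of signal, which could change it, the ratio of GHR was 0.32. In absolute terms the scaling set its size and sign, with 0.056 by clean reads and -0.31 without scaling.

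The regions of GHR with the most reads per kb stood at its lower-coordinate end. The region across that end, from 27126162 to 27126891, had 539 reads in Duroc and 415 in Luchuan, a log2 ratio of 0.19 (-0.0012 to 0.37). The next one, from 27127210 to 27128246, had the most reads of the gene, 763 in Duroc and 588 in Luchuan, and a ratio of 0.19 (0.031 to 0.35). Both were common to the breeds and their ratios were below the median of the gene, so the excess in Luchuan was not led by the regions with the most reads. Without the region of the most reads the summed ratio was 0.26.

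The 6 regions of GHR that were 2-fold or more higher in Luchuan lay far inside the gene and were 7.14% of its regions, near the 6.4% of all regions. The largest ratio was that of a common region 40.4 kb from the lower-coordinate end, from 27166528 to 27166776, with 41 Duroc and 75 Luchuan reads before scaling. Its log2 ratio was 1.41 (0.87 to 2.02), at percentile 97.4 of all regions, and the raw Luchuan count exceeded the Duroc count although the Luchuan pool was the shallower. The 2 regions next to it were weak, with 12 Duroc and 20 Luchuan reads from 27171827 to 27172000 (1.23, 0.20 to 2.47) and 15 Duroc and 23 Luchuan reads from 27177113 to 27177372 (1.13, 0.18 to 2.22). The latter was called as a peak in Duroc alone. Further in, the region from 27201351 to 27201523 had 40 reads in Duroc and 63 in Luchuan, with a ratio of 1.20 (0.63 to 1.83). The region from 27264011 to 27264380 had 64 reads in Duroc and 99 in Luchuan, with a ratio of 1.18 (0.73 to 1.67). The last of the 6, from 27361638 to 27361902, had 49 reads in Duroc and 68 in Luchuan, with a ratio of 1.02 (0.49 to 1.60). Just below the threshold stood a stronger, common region from 27347033 to 27347465, with 136 Duroc and 182 Luchuan reads and a ratio of 0.98 (0.66 to 1.32).

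Against this direction, 3 regions of GHR (3.57%, against 5.63% of all regions) were 2-fold or more higher in Duroc, and they lay close together between 102.6 and 111.5 kb from the lower-coordinate end. The region from 27237727 to 27237965 counted 49 reads in Duroc against 8 in Luchuan, a log2 ratio of -1.96 (-3.34 to -0.96), which was the largest difference of any of the 198 regions and at percentile 0.695 of all regions. The region from 27228789 to 27229032 had 46 reads in Duroc and 11 in Luchuan, with a ratio of -1.44 (-2.60 to -0.53). The third, from 27229356 to 27229569, held 24 reads in Duroc and 7 in Luchuan, and its interval included 0 (-1.14, -2.67 to 0.045). All 3 were called in Duroc alone. The next lowest ratio of the gene was -0.31 (-1.19 to 0.50), so these 3 stood apart from the other 81 regions. A common region between them, 104.9 kb from that end, had 90 reads in Duroc and 72 in Luchuan, with a ratio of 0.24 (-0.23 to 0.71).

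**Figure D2:**
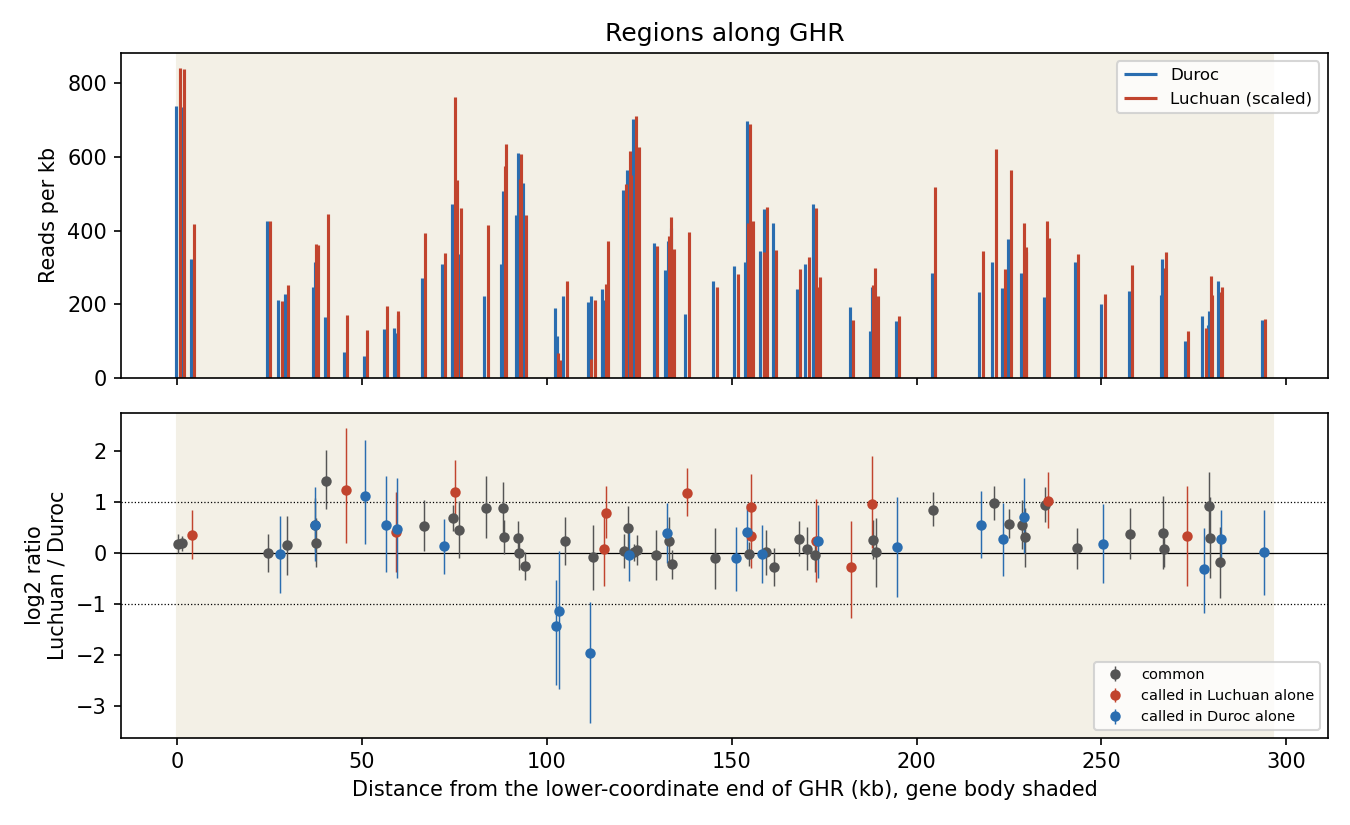
The upper panel gives reads per kb of each of the 84 regions of GHR in Duroc and in Luchuan (scaled), drawn slightly side by side, and the lower panel the log2 ratio with its 95% counting interval, both against distance from the lower-coordinate end of the gene in kb. Most points lie above 0 after scaling, those between 200 and 250 kb all do, and 3 regions called in Duroc alone lie below -1 between 102.6 and 111.5 kb.

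The gene was divided into segments of 50 kb from its lower-coordinate end. The ratio was largest between 200 and 250 kb, where all 11 regions were higher in Luchuan and the sums were 1028 Duroc and 1117 Luchuan reads, a log2 ratio of 0.68 (0.56 to 0.81). It was 0.25 (0.15 to 0.35) in the first 50 kb, with 10 of 11 regions higher in Luchuan, and 0.36 (0.25 to 0.47) from 50 to 100 kb, with 13 of 15. In the middle of the gene the ratio was 0.066 (-0.026 to 0.16) from 100 to 150 kb and 0.10 (-0.0029 to 0.21) from 150 to 200 kb. It was 0.22 (0.042 to 0.40) in the last segment, with 9 of 11 regions higher in Luchuan. The interval of the segment from 200 to 250 kb did not overlap that of any other segment.

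IGF1R, through which IGF1 and IGF2 activate PI3 kinase and AKT, lies on chromosome 1 from 137383623 to 137691038 (NCBI gene 397350). Its 54 regions held 7095 Duroc and 4728 Luchuan reads, and the summed log2 ratio was -0.021 (-0.075 to 0.032). The number of regions above 0 was 25 and below 0 it was 29. The strongest region, from 137690839 to 137691869 across the higher-coordinate end of the gene, had 722 reads in Duroc and 480 in Luchuan, with a ratio of -0.025 (-0.19 to 0.14). With the main scaling no difference beyond counting error was detectable at this end or over the whole gene, with intervals much narrower than 2-fold. With scaling by clean reads both intervals left out 0, at -0.22 (-0.39 to -0.054) for this end and -0.22 (-0.27 to -0.17) for the gene.

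This balance hid opposite differences along IGF1R. In the first 50 kb from the lower-coordinate end the ratio was -0.31 (-0.48 to -0.14), with 5 of 7 regions higher in Duroc, and from 50 to 100 kb it was -0.23 (-0.39 to -0.070), with 7 of 8. It was -0.081 (-0.20 to 0.038) from 100 to 150 kb and -0.0019 (-0.12 to 0.12) from 150 to 200 kb. From 200 to 250 kb it was 0.39 (0.16 to 0.63), with 6 of 7 regions higher in Luchuan, and from 250 to 300 kb it was 0.20 (0.059 to 0.34), with 4 of 6. At the higher-coordinate end it returned to 0.0073 (-0.12 to 0.14). Each segment held 6 to 10 regions, apart from 1 region below the gene.

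A single region of IGF1R passed 2-fold in each direction. Each was 1.85% of the gene's 54 regions, against 6.4% of all regions higher in Luchuan and 5.63% higher in Duroc. The one higher in Duroc, 35.1 kb from the lower-coordinate end and from 137418552 to 137418847, had 75 reads in Duroc and 23 in Luchuan, with a log2 ratio of -1.12 (-1.88 to -0.45). The one higher in Luchuan, 248.3 kb from that end and from 137631823 to 137632062, had 48 reads in Duroc and 67 in Luchuan, with a ratio of 1.03 (0.49 to 1.61). Next below the threshold were a region above the gene, from 137697653 to 137697970, with 81 Duroc and 31 Luchuan reads (-0.81, -1.47 to -0.21), and a weak region from 137439282 to 137439483 with 20 Duroc and 27 Luchuan reads (0.96, 0.11 to 1.91). The surroundings of the gene leaned to Duroc. The 247 regions within 1000 kb had a median ratio of -0.27, and 26.7% of them were higher in Luchuan, against 46.3% of the regions of IGF1R.

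IGF2R, which clears IGF2 from the cell surface and carries mannose 6-phosphate tagged enzymes to lysosomes, lies on chromosome 1 from 7369485 to 7472480 (NCBI gene 397214). Of its 18 regions, 15 were higher in Luchuan after scaling, with a median over the 18 of 0.15 and a range from -0.43 to 1.02. The sums were 3642 Duroc and 2638 Luchuan reads. The strongest region, 43.1 kb from the lower-coordinate end and from 7412179 to 7413042, had 643 reads in Duroc and 446 in Luchuan, with a log2 ratio of 0.036 (-0.14 to 0.21). The region across the higher-coordinate end, from 7472154 to 7473123, had 527 reads in Duroc and 359 in Luchuan, with a ratio of 0.010 (-0.19 to 0.21). At both of these strong regions the breeds could not be told apart.

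One strong region of IGF2R went against its sum. At 77.6 kb from the lower-coordinate end, the region from 7446760 to 7447470 had 365 reads in Duroc and 183 in Luchuan, with a ratio of -0.43 (-0.70 to -0.17). Only 1 region was past 2-fold, or 5.56% of the 18, against 6.4% of all regions higher in Luchuan. It was a weak region at the lower-coordinate end, from 7369531 to 7369682, with 17 Duroc and 24 Luchuan reads (1.02, 0.10 to 2.05). Next to it in size was a region called in Luchuan alone, from 7441590 to 7441834, with 51 Duroc and 57 Luchuan reads (0.71, 0.15 to 1.30). The 141 regions within 1000 kb around IGF2R also leaned to Luchuan, with a median of 0.11, close to the gene's own median of 0.15.

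**Figure D3:**
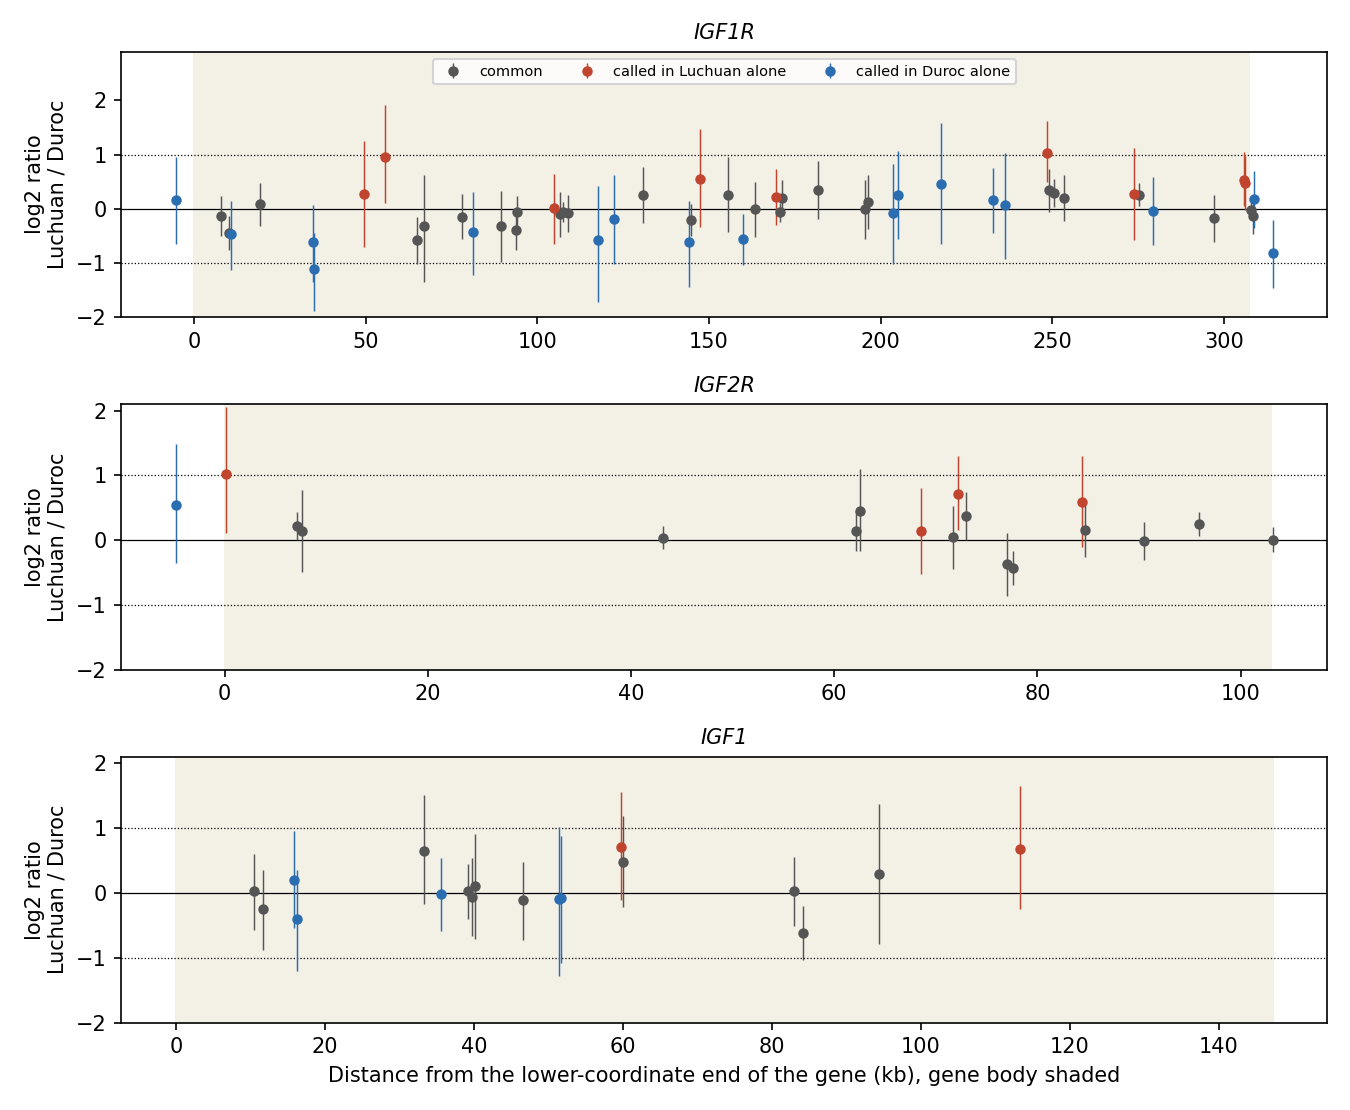
Log2 ratios of scaled Luchuan to Duroc reads with 95% counting intervals against distance from the lower-coordinate end in kb, for the 54 regions of IGF1R, the 18 of IGF2R and the 18 of IGF1, coloured by the breed in which the peak was called. At IGF1R most points lie below 0 in the first 100 kb and above 0 between 200 and 250 kb, and at IGF1 1 interval, at 84.2 kb, lies wholly below 0.

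IGFBP5, the binding protein most typical of differentiating muscle cells, lies on chromosome 15 from 118861816 to 118877787 (NCBI gene 397182) and was the only one of the 4 binding protein genes with abundant open chromatin. Its 13 regions held 2634 Duroc and 1516 Luchuan reads. After scaling, 10 of the 13 were higher in Duroc, and for 5 of them (38.5%, against 15.8% of all regions) the interval lay below 0. Neither the 128 regions within 1000 kb around it (median -0.021) nor chromosome 15 (-0.020) leaned that far.

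The ratio of IGFBP5 was lowest below its lower-coordinate end. The 3 regions there, between 3.13 and 5.58 kb from the gene by their midpoints, held 408 Duroc and 154 Luchuan reads, a log2 ratio of -0.84 (-1.12 to -0.57). The 8 regions inside the gene had a ratio of -0.15 (-0.25 to -0.039), and the 2 above it -0.14 (-0.41 to 0.12). The interval of the regions below the gene did not overlap either of these. Of the difference in scaled reads over the window, the regions below the gene gave 45.9% and those inside it 46.5%. The strongest of the 3, from 118855940 to 118856537, was common to the breeds and had 291 reads in Duroc and 114 in Luchuan, a ratio of -0.78 (-1.11 to -0.47). The region from 118856978 to 118857152 was called in Duroc alone and was past 2-fold, with 55 Duroc and 14 Luchuan reads (-1.37, -2.37 to -0.54). These 3 regions also lay within 10 kb of IGFBP2, the gene of another binding protein, which ends 10.8 kb below IGFBP5, so they cannot be assigned to either gene from position.

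Inside IGFBP5 the most-read region, from 118864732 to 118865274, had 396 reads in Duroc and 254 in Luchuan, with a ratio of -0.076 (-0.31 to 0.15). The interval lay wholly below 0 for 2 of the 8 inside regions, against 15.8% of all regions, and these 2 were chosen after their values were seen. The one from 118867178 to 118867609 had 270 reads in Duroc and 123 in Luchuan (-0.57, -0.89 to -0.26), and the one from 118876141 to 118876510 had 282 and 133 (-0.52, -0.83 to -0.22). The highest ratio of the gene was 0.22 (-0.16 to 0.59), from 118875178 to 118875409, with 136 Duroc and 107 Luchuan reads. The ratio of IGFBP5 relative to the median of all regions was -0.21 with the main scaling. A single factor for all regions cancels in this value, so scaling by clean reads (-0.22) could hardly change it. With a factor for each of 10 classes of signal, which could change it, the value was -0.16.

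**Figure D4:**
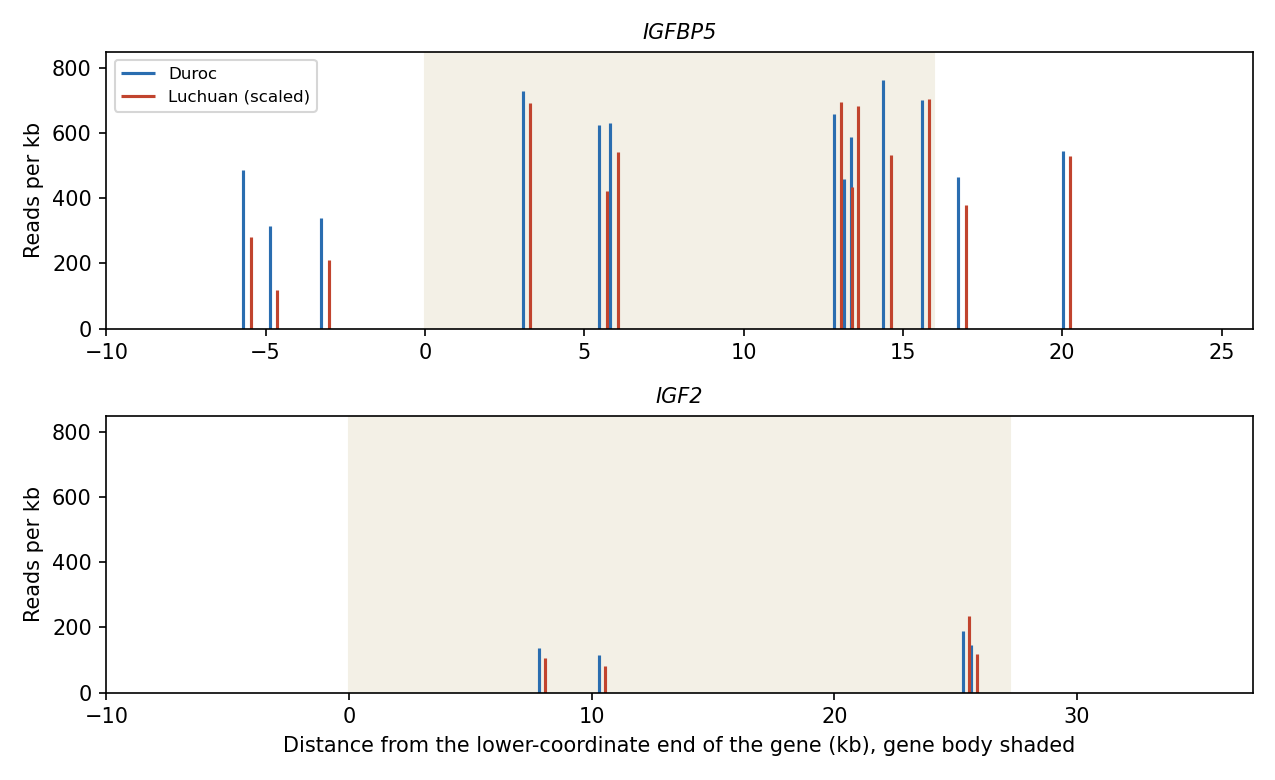
Reads per kb of each region (y axis) in Duroc and in Luchuan (scaled), drawn slightly side by side, against distance from the lower-coordinate end of IGFBP5 and of IGF2 in kb, with the gene body shaded and the same y axis in both panels. The 3 regions below IGFBP5 are higher in Duroc, and the 4 regions of IGF2 stay low in both breeds.

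The other binding protein genes had 1 to 4 regions each and few reads. IGFBP4, an inhibitor of IGF action that is cut by the protease PAPPA, lies on chromosome 12 from 21966524 to 21980043 (NCBI gene 100144490) and had 4 regions near its higher-coordinate end. They held 167 Duroc and 137 Luchuan reads, a log2 ratio of 0.28 (-0.058 to 0.61). The strongest, from 21981474 to 21981735 and outside the gene, counted 62 reads in Duroc against 48 in Luchuan (0.19, -0.38 to 0.76). The one across the gene end, from 21979907 to 21980086, had 28 and 23 reads (0.27, -0.58 to 1.13). The largest ratio, 0.69 (-0.30 to 1.76), was that of a region called in Luchuan alone with 17 Duroc and 19 Luchuan reads, from 21978113 to 21978276. All 4 ratios lay above 0 and all 4 intervals included it.

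IGFBP6, which binds IGF2 in preference to IGF1, lies on chromosome 5 from 18352884 to 18357225 (NCBI gene 100101923) and had 2 common regions with 93 Duroc and 79 Luchuan reads, a log2 ratio of 0.33 (-0.12 to 0.78). The region inside the gene, from 18355161 to 18355463, held 65 reads in Duroc and 47 in Luchuan (0.095, -0.48 to 0.66). The other, from 18366002 to 18366183, had 28 reads in Duroc and 32 in Luchuan (0.74, -0.021 to 1.54) and lay inside the neighbouring gene SOAT2, which encodes a cholesterol esterifying enzyme. IGFBP3, the main IGF carrier of the blood, lies on chromosome 18 from 50002921 to 50009425 (NCBI gene 448812). It had no region in its body and 1 region below it, from 50001747 to 50001947, with 28 Duroc and 21 Luchuan reads and a ratio of 0.14 (-0.74 to 1.02). For these 3 genes differences of the size seen at GHR or IGFBP5 were not detectable at this depth.

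In both breeds 4 of the 9 genes had a higher level of open chromatin per length than the other 5. IGFBP5 had the highest level, with 594 Duroc reads per kb of region (571 to 617, exact Poisson interval) and 505 scaled Luchuan reads per kb (480 to 531). IGF2R had 452 and 484 reads per kb in the same order, IGF1R 411 and 405, and GHR 355 and 423. In Duroc the intervals of these 4 genes did not overlap. In Luchuan the intervals of IGFBP5 and IGF2R overlapped, and so did those of GHR and IGF1R, whose order was the reverse of that in Duroc. IGF1 had 206 Duroc and 204 scaled Luchuan reads per kb, and IGFBP6, IGFBP4, IGF2 and IGFBP3 lay between 139 and 192 in Duroc and between 149 and 241 in Luchuan. Among these 4, neighbours in the order had overlapping intervals in both breeds. Over all protein-coding genes the median was 441 Duroc reads per kb, and the percentile was 8.03 for IGF2, 13.9 for IGF1, 33.2 for GHR, 43.9 for IGF1R, 52.1 for IGF2R and 78.2 for IGFBP5. The levels without scaling were 342 Luchuan reads per kb at IGFBP5 and 286 at GHR.

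**Figure D5:**
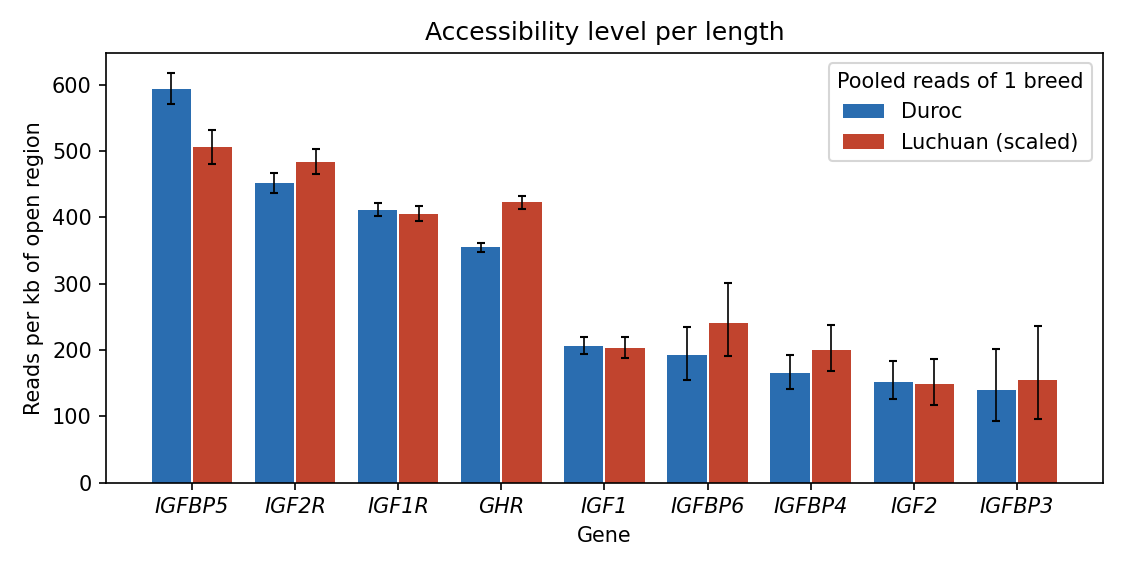
Bars give Duroc reads and scaled Luchuan reads per kb of open region (y axis, from 0) for the 9 genes in order of the Duroc level (x axis), with exact 95% Poisson intervals for counting error and 1 pooled count per breed. IGFBP5, IGF2R, IGF1R and GHR lie above 350 and the other 5 genes below 250.

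The 198 regions comprised 116 common to both breeds (58.6%), 52 called in Duroc alone (26.3%) and 30 called in Luchuan alone (15.2%). Over all regions these shares were 49.1%, 31.8% and 19.1%. Common regions were wider and stronger, with a median width of 332.5 bases and 124 Duroc reads against 191 bases and 39 Duroc reads for those called in Duroc alone. A call in one breed did not mean a difference in reads. Of the 52 regions called in Duroc alone, 24 (46.2%) had more reads in Luchuan after scaling, against 21.0% of such regions over the genome, and 15 of these 24 were in GHR. Of the 30 called in Luchuan alone, 1 (3.33%) had more reads in Duroc after scaling, against 8.94% over the genome. Reads per kb of a region in the breeds rose together over the 198 regions (Spearman's rho 0.82, a description over regions that share their libraries), as over all regions (0.80).

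Around these genes, a list of 47 other genes of IGF and growth hormone action was counted in the same way. By symbol, 45 were found and 44 had at least 1 region. Of their 576 regions of at least 20 reads, 22 (3.82%) were 2-fold or more higher in Luchuan and 16 (2.78%) higher in Duroc, against 6.4% and 5.63% of all regions, and the median ratio was 0.026. Over whole genes, the interval of the summed ratio lay above 0 for 9 (20.5% of the 44) and below 0 for 11 (25%), near the 22.8% and 25.2% of all protein-coding genes. The list shared 3 regions with IGFBP5 and 2 with IGF2.

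Among the extracellular partners, PAPPA, the protease that cuts IGFBP4 and frees IGF, had the largest difference toward Duroc. Its 12 regions held 1404 Duroc and 531 Luchuan reads, a log2 ratio of -0.84 (-0.99 to -0.69). The 5th percentile of the summed ratio over all protein-coding genes was -0.47. Of its 11 regions of at least 20 reads, 3 were past 2-fold toward Duroc, against 5.63% of all regions. The strongest of these 3, from 256753143 to 256753679 on chromosome 1, counted 296 reads in Duroc against 93 in Luchuan (-1.10, -1.46 to -0.77). IGFBP2 held 497 reads in Duroc and 229 in Luchuan in 5 regions, 3 of them those below IGFBP5, and a ratio of -0.55 (-0.79 to -0.33). Its other 2 regions had 89 reads in Duroc and 75 in Luchuan, a ratio of 0.31 (-0.15 to 0.78), so its direction rested on the regions shared with IGFBP5. STC1, whose protein inhibits PAPPA, had a single weak region with 7 reads in Duroc and 22 in Luchuan (2.07, 0.94 to 3.69). IGFBP7 had 2 weak regions of 24 past 2-fold toward Luchuan, against 6.4% of all regions, and was near 0 in its sum with 0.064 (-0.018 to 0.15).

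In the growth hormone pathway inside the cell, the kinase gene JAK2 had a summed ratio of -0.0047 (-0.11 to 0.10). Of its 11 regions, 2 weak ones were past 2-fold toward Duroc (against 5.63% of all regions), of 32 against 10 reads and 20 against 6. The transcription factor genes STAT5A and STAT5B, which carry the signal to the nucleus, had ratios of -0.28 (-0.38 to -0.19) and -0.13 (-0.20 to -0.061). Toward Duroc, 1 of 9 regions of STAT5A and 1 of 22 of STAT5B were past 2-fold, against 5.63% of all regions. The region of STAT5A had 437 Duroc and 122 Luchuan reads (-1.27, -1.58 to -0.98). That of STAT5B had 151 Duroc and 37 Luchuan reads (-1.45, -2.02 to -0.94). The summed ratios of STAT5A and STAT5B had the opposite sign to that of the receptor GHR, while the interval of JAK2 included 0. An interval below 0 was frequent, with 25.2% of all protein-coding genes.

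Downstream of IGF1R, FOXO1, a transcription factor that AKT keeps out of the nucleus, had a ratio of 0.31 (0.25 to 0.37). Of its 34 regions, 4 were past 2-fold toward Luchuan, against 6.4% of all regions. GRB14, an adaptor that inhibits insulin receptor signalling, had 0.47 (0.27 to 0.66). Of its 11 regions, 4 were past 2-fold toward Luchuan, against 6.4% of all regions, and 3 of these 4 had 24 to 28 reads. The insulin receptor gene INSR had -0.17 (-0.23 to -0.11), with 2 of 28 regions past 2-fold toward Duroc, against 5.63% of all regions. IGF2BP1 and IGF2BP2, whose proteins bind IGF2 mRNA, went in opposite directions, with -0.71 (-0.998 to -0.44) over 3 regions and 0.29 (0.19 to 0.40) over 19.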

How the data were processed

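ATAC-seq, in which a transposase cuts and tags open chromatin, was performed by the authors on back muscle of 3 boars per breed. Reads were filtered with Trimmomatic (version 0.36) and aligned to Sus scrofa 11.1 with Bowtie2, and peaks were detected with MACS2. For each peak the authors deposited 1 whole-number count of reads per breed, not scaled for depth. The columns name no replicate, so the counts were read as pooled. How duplicates, the transposase shift and the pooling were handled is not given in the sources used here. Another 3 deposited columns hold the authors' own comparison (a log2 fold change, an average log2 signal and a P) and were not used.

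Here, starts were counted from 1 and overlapping or adjoining common intervals were merged, with the longest interval standing for the region. Luchuan counts were multiplied by 1.48, which sets the median log2 ratio of common regions of at least 20 reads to 0, and 1 read was added to each scaled count. The 95% Clopper-Pearson interval of a ratio covers counting error between the 2 pooled libraries. It leaves out the spread between boars, and duplicates cannot be recognised in a count given per region. No test was possible. Gene positions came from RefSeq for Sscrofa11.1. Within each gene, the region with the most reads, regions spanning a gene end, regions past 2-fold and the next below 2-fold in each direction were named. Pathway genes were named where a region was past 2-fold or lay in a member's window. The genes and lists were chosen with earlier results of these data known, and the 50 kb segments and the flanks after values had been seen. The ratio script was tested on simulated counts. Alternatives covered scaling, pseudocount, read minimum, fold, merging and window. RNA-seq was not analysed here, and the planned search of promoters for motifs was not run because no sequence was used. The tools were Matplotlib 3.10.9, SciPy 1.17.1, pandas 2.3.3 and NumPy 2.4.6 under Python 3.11.15.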

Additional observations from a re-analysis of the deposited data

How the results depend on the processing

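Each alternative was computed from the pooled counts. The direction of a gene's ratio depended on the scaling. With the clean reads the study states, the summed log2 ratio was -0.22 for IGF1, 0.056 for GHR, -0.22 for IGF1R, -0.43 for IGFBP5 and, reversed, -0.099 for IGF2R, and 3 regions were past 2-fold toward Luchuan. IGFBP3 turned to -0.047. The strongest region of GHR then reversed to -0.0098. Without scaling, the summed ratio lay below 0 for all 9 genes. It was -0.58 for IGF1, -0.59 for IGF2, -0.59 for IGF1R and -0.80 for IGFBP5, and it changed sign for GHR (-0.31), IGF2R (-0.47), IGFBP3 (-0.40), IGFBP4 (-0.28) and IGFBP6 (-0.23) and for the strongest region of GHR (-0.38). Then 0 regions were past 2-fold toward Luchuan and 19 toward Duroc. These shifts follow from the factor itself, since over all regions the shares past 2-fold then were 1.99% and 20.8%. A factor for each of 10 classes of signal gave 0.31 for GHR. Toward Luchuan, 4 regions passed with a pseudocount of 5 and 5 with a minimum of 50 reads. A 1.5-fold threshold gave 27 toward Luchuan and 11 toward Duroc. Total reads as scaling, other ways of merging and narrower windows moved no summed ratio beyond its interval, although with every interval counted those of IGFBP4 and IGFBP6 left out 0, and with the gene body alone IGFBP3 has no value. No paired analysis was possible because the columns carry no replicate, and leaving out single boars could not be run for the same reason. Regions of 20 to 50 reads have intervals wider than 1 on the log2 scale.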
